A study of Rattus norvegicus with 16 samples.

Results

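The genes described here are 30 enzymes and regulators of cholesterol and fatty acid synthesis, chosen as the genes whose symbol equals one of a list of 30 names, of 21021 genes listed in each sample. All 30 were found, each was listed once, and all 30 passed the filter on low values, so none is missing from the counts. They were measured by RNA sequencing in the dorsal root ganglia (DRGs) of adult female Sprague-Dawley rats after tumor cell implantation (TCI), in which Walker-256 mammary carcinoma cells are injected into the marrow space of the left tibia. L3–L5 DRGs of the injected side of 1 rat formed 1 sample, and 4 samples were deposited for each of 4 groups, namely sham and 1, 7 and 14 days after TCI. Day 1 sample 2 and day 7 sample 3 were dropped from the statistics by the study for low correlation, and the values here rest on the other 14 of the 16 samples (sham n = 4, day 1 n = 3, day 7 n = 3, day 14 n = 4).

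For the sham rats, the labels describe an injection of PBS and the methods an injection of boiled tumor cells. By the labels all sham DRGs were collected on day 14. For days 1 and 7 after TCI, the effect of the treatment and that of the days passed since surgery cannot be told apart. The tumor was a graft of 1 cell line placed in the bone, at a distance from the ganglia.

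Cells build cholesterol from acetyl-CoA by a long chain of enzymes. The mevalonate pathway makes isoprenoid units, these are joined into squalene, squalene is closed into the ring of lanosterol, and lanosterol is trimmed and rearranged to cholesterol. Fatty acids are made from the same precursor, then lengthened and given double bonds. The transcription factors SREBP-1 and SREBP-2, encoded by Srebf1 and Srebf2, switch both programs on when sterols are scarce, and INSIG proteins hold them back when sterols are plentiful. In peripheral nerve and ganglion, glia that make myelin are heavy users of both pathways, since myelin is a lipid-rich membrane whose sterol is largely made on site.

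Expression was given as FPKM (fragments for each kilobase of transcript, relative to all mapped fragments of that sample). FPKM is already divided by transcript length, so levels may be set side by side between genes. In sham DRGs the members spanned from 6.23 ± 1.94 FPKM (SD, n = 4) for Elovl6, which lengthens saturated fatty acids, to 305 ± 15.3 for Hmgcs1, which makes HMG-CoA at the start of the mevalonate pathway. Fdps (238 ± 13.4), which joins isoprenoid units into farnesyl diphosphate, and Cyp51 (160.3 ± 9.12), which removes a methyl group from lanosterol, followed Hmgcs1. Next came Msmo1 (119 ± 6.62), a sterol methyl oxidase, and Acly (111 ± 3.45), which makes cytosolic acetyl-CoA from citrate. At the low end beside Elovl6 stood Hsd17b7 (9.85 ± 1.3), a sterol ketone reductase, Stard4 (14.1 ± 0.80), a carrier of cholesterol between membranes, and Acaca (18.0 ± 0.46), which makes malonyl-CoA.

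The sequences upstream of these genes are shown for 4 members that were called lower in at least one of the comparisons below and that differ in motif content. RefSeq promoters of 300 bases (assembly GRCr8, gene strand) were found for 23 of the 30 members. The transcript start is not marked here, so a window may include transcribed bases. A script searched both strands for TCACNCCAC, a short form of the sterol response element, for CCAAT, the box bound by NF-Y, and for GGGCGG, the box bound by Sp1. In the 4 runs, which read 5′ to 3′, capitals mark CCAAT or GGGCGG or the reverse complement of either, and no marked boxes overlap. The windows lie at chr2:53382054-53382353 (Hmgcs1), chr4:30991443-30991742 (Cyp51), chrX:155817110-155817409 (Nsdhl) and chr1:216252442-216252741 (Fads1), all on the + strand.
Hmgcs1: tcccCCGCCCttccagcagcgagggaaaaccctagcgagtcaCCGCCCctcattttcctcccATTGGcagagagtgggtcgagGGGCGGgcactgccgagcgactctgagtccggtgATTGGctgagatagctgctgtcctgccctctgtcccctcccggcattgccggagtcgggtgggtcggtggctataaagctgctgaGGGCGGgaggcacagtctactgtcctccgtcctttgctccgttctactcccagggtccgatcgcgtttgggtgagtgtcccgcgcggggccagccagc
Cyp51: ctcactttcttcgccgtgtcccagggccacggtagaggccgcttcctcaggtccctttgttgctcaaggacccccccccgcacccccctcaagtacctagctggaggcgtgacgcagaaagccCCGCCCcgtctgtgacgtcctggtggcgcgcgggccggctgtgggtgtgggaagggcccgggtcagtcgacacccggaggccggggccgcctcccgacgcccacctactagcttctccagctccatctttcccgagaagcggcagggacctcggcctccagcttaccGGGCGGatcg
Nsdhl: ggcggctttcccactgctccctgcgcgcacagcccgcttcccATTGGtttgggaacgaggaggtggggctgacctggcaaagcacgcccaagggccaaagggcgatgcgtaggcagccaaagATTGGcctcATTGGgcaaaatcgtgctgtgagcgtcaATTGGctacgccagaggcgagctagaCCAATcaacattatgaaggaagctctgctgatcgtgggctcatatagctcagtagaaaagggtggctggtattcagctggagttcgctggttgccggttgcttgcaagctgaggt
Fads1: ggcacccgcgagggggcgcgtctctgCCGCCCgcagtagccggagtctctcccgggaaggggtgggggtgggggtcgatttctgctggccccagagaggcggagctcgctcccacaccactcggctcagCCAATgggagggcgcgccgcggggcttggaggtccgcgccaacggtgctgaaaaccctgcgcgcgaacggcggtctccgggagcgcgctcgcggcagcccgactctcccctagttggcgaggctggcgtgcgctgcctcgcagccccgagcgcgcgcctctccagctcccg

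Hmgcs1 held 2 CCAAT and 4 GGGCGG boxes, Cyp51 held 0 and 2, Nsdhl 5 and 0, and Fads1 1 and 1. CCAAT was present in 18 of the 23 member promoters (78.3%), against 39.6% of the 27457 genes with a promoter in the table and 38.5% of the 10951 genes that were also tested for expression. GGGCGG was present in 20 of 23 (87.0%), against 36.0% and 62.6%. The sterol element was found in 0 of 23, against 1.25% and 1.16%. These are matches of letters in a fixed window, given as a description with no test. They show neither binding nor its absence.

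Some samples stood apart. The skeletal muscle list of 12 genes had a mean log2(FPKM + 1) of 10.39 in day 7 sample 3, which was left out, and of 4.90 in sham sample 4, which was kept, against 0.64 to 1.25 in the other samples. Day 7 sample 3 also had the lowest median correlation with the others (0.928) and the lowest value of all 16 samples for 23 of the 30 members. Day 1 sample 2, which was left out too, had a median correlation of 0.984. It was 0.950 for day 14 sample 2, which was kept. Sham sample 4 lay within the range of the other 3 sham samples for 14 members, and counts are given without it below. The sum of FPKM ran from 436572 to 473959 over the 14 samples. The tables hold no read totals, so the depth behind each value is unknown and no counting error is given.

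Groups were compared by limma on log2(FPKM + 1) over 14023 genes, and a gene was called at an adjusted p of at most 0.05 with no limit on the fold change. A difference below is in units of log2(FPKM + 1), the later or treated group minus the other. On day 1 after TCI no member was called in either direction, as for all genes tested (0% lower and 0% higher). At an unadjusted p under 0.05 there were 2 members and 734 genes in all. The median difference of the 30 members was -0.03, with 19 of 30 below 0, against 0.001 and 49.7% for all genes. Groups did not overlap for 1 member, Fads2, lower on day 1, against 5.73% of all genes lower and 6.17% higher.

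On day 7, 6 of 30 members (20.0%) were called lower than in sham, namely Sqle, Cyp51, Dhcr7, Scd, Fads1 and Fads2, and none was higher. Of all genes 3.45% were called lower and 14.5% higher. The median difference of the 30 members was -0.23 with 27 of 30 below 0, while the median over all genes was 0.04 with 39.7% below 0. All day 7 values lay under all sham values for 16 of 30 members (53.3%), against 10.1% of all genes, and 0 members had all values above, against 23.8%. In bulk tissue, fewer cells of a type and less RNA per cell cannot be told apart.

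On day 14 after TCI, 9 members were lower than in sham and 1 was higher. The 9 were the 6 of day 7 together with Hmgcs1, Nsdhl and Sc5d, and the higher one was Srebf1. Of all genes 3.21% were called lower and 11.9% higher. The median difference was -0.24 with 27 of 30 members below 0, against 0.03 and 43.6% for all genes. Values did not overlap for 7 members lower (23.3%) and 0 higher, against 5.38% and 13.8% of all genes. Days 7 and 14 were set against the same 4 sham samples, so the values for the 2 days are not independent of each other.

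The counts rested on few samples while the direction did not. Without sham sample 4, which carried muscle genes, 3 members were called lower on day 7 and 5 on day 14. On day 7 the count was 2 without day 7 sample 1, 3 without day 7 sample 2, day 7 sample 4 or sham sample 3, and 10 without day 14 sample 2, which enters through the shared variance. On day 14 it was 5 without day 14 sample 2, day 14 sample 3, sham sample 1 or sham sample 2, 4 without sham sample 3, and 14 without day 14 sample 4. The number of members below 0 stayed between 25 and 27 on day 7 and between 26 and 28 on day 14 when each sample in turn was left out. With all 16 samples 12 members were lower on day 7 and 5 on day 14. Median centring of the samples moved the median of all genes on day 7 by -0.11, and 18 members were then called lower on day 7 and 15 on day 14. Under it the median was -0.34 for the members and -0.07 for all genes on day 7, and -0.31 and -0.04 on day 14. The share of all genes called is not given for these alternative settings, so the counts of members under them cannot be set against it.

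By gene, calls differed in how often they held over 25 alternative settings that kept the limit of 0.05. On day 7, Dhcr7 and Scd passed in 24 each, Fads1 in 20, Sqle in 12 and Fads2 in 10. On day 14, Fads1 passed in 25, Nsdhl in 24, Sc5d in 22, Fads2 in 21, Dhcr7 and Sqle in 17 each, Scd in 15 and Hmgcs1 in 9. None of these members changed sign in any of them.

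**Figure D1:**
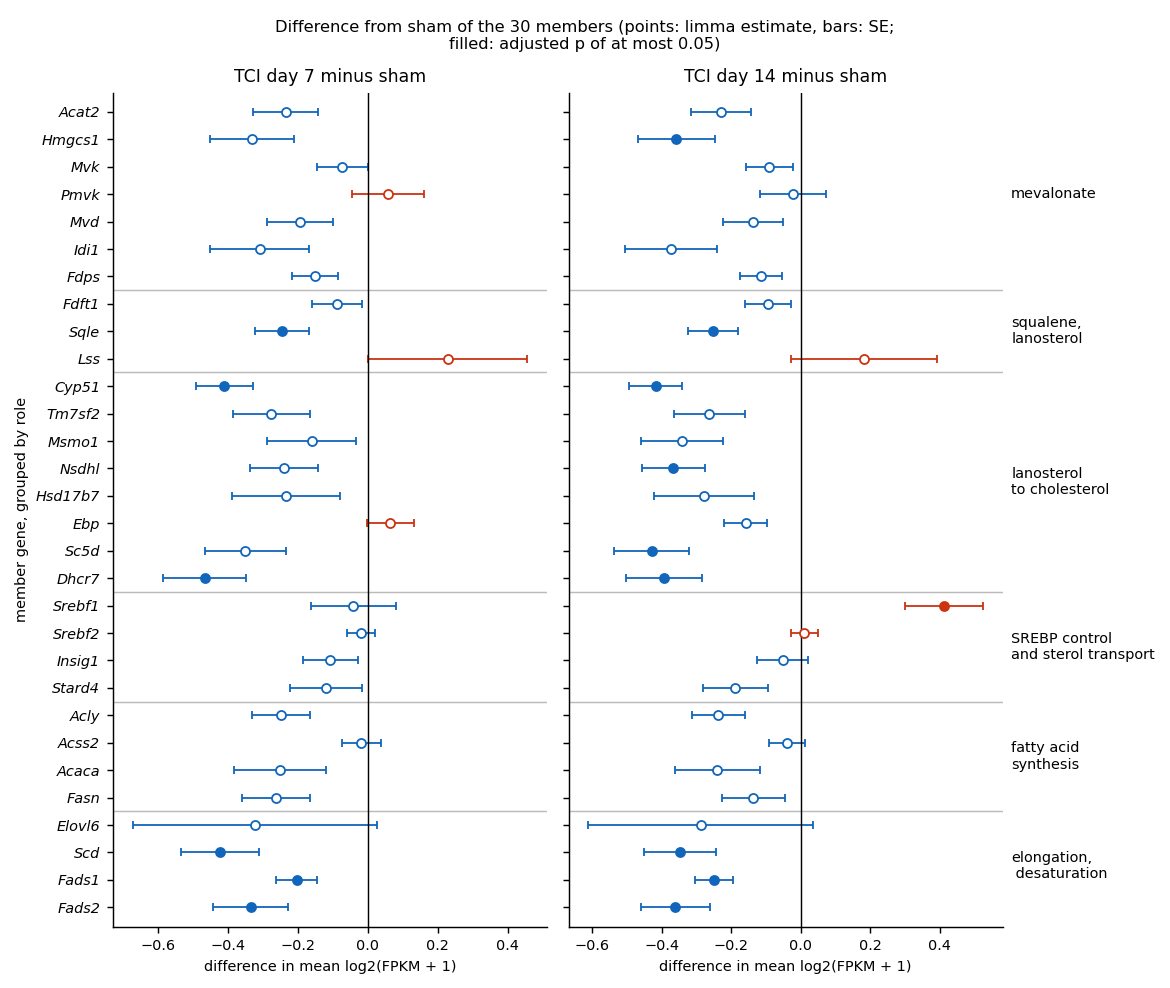
Difference from sham in mean log2(FPKM + 1) of the 30 members on day 7 (left) and day 14 (right) after TCI, grouped by role. Points are limma estimates, bars the SE, filled points an adjusted p of at most 0.05, blue a value below 0 and red above 0. On each day 27 of 30 points lie below 0, and Srebf1 is the only filled point above 0.

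Among the 7 mevalonate genes, 0 were called on day 7 and 1 on day 14, with medians of -0.19 and -0.14. Hmgcs1 measured 305, 305, 323 and 286 FPKM in sham samples 1 to 4, 343, 304 and 284 in day 1 samples 1, 3 and 4, 269, 249 and 211 in day 7 samples 1, 2 and 4, and 258, 201, 210.3 and 291 in day 14 samples 1 to 4. The same order of samples is kept for every gene. All 3 day 7 values lay under every sham value, whereas day 14 sample 4 reached into the sham range. The difference was -0.33 ± 0.12 (SE, adjusted p = 0.077) on day 7 and -0.36 ± 0.11 (adjusted p = 0.047) on day 14.

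Acat2, the cytosolic acetoacetyl-CoA thiolase, averaged 91.7 ± 6.08 FPKM in sham, 77.8 ± 5.13 on day 7 and 78.6 ± 10.7 on day 14. Idi1, which isomerizes isopentenyl diphosphate, averaged 41.3 ± 2.89, 33.1 ± 2.67 and 32.3 ± 7.61 FPKM. Fdps averaged 238 ± 13.4, 214 ± 5.99 and 219.6 ± 18.1. For these 3 genes every day 7 value lay under every sham value, and none of them passed the test on either day. Mvd, the diphosphomevalonate decarboxylase, averaged 38.9 ± 2.75, 34.0 ± 3.92 and 35.4 ± 4.25. The kinases Mvk and Pmvk had the smallest differences of the 7, namely -0.07 and 0.06 on day 7 and -0.09 and -0.02 on day 14.

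In the squalene and lanosterol step, Sqle, the squalene epoxidase that is a control point of the late pathway, was called lower on both days. It measured 78.4, 75.7, 84.8 and 84.7 FPKM in sham, 82.4, 76.5 and 76.2 on day 1, 72.1, 69.4 and 62.8 on day 7, and 69.3, 59.7, 65.7 and 77.0 on day 14. Every day 7 value lay under the sham range, and on day 14 only sample 4 reached it. Its mean fell by 15.8% on day 7 (difference -0.25 ± 0.08, adjusted p = 0.044) and fell by 16.0% on day 14 (-0.25 ± 0.07, adjusted p = 0.032). Fdft1, squalene synthase, averaged 65.8 ± 1.72 FPKM in sham, 61.9 ± 4.61 on day 7 and 61.8 ± 6.09 on day 14, with an adjusted p of 0.44 and 0.37.

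Lss, which closes the sterol ring, behaved unlike its neighbours in the pathway. It measured 23.1, 24.1, 26.5 and 23.6 FPKM in sham but 44.8, 39.4 and 23.7 on day 1, 23.0, 35.3 and 28.9 on day 7, and 39.1, 19.6, 29.4 and 26.0 on day 14. Within each TCI group single samples lay far above and near the sham level, so the groups overlapped. The differences of 0.50 ± 0.23 on day 1, 0.23 ± 0.23 on day 7 and 0.18 ± 0.21 on day 14 did not pass the test (adjusted p = 0.94, 0.54 and 0.61).

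Of the 8 genes from lanosterol to cholesterol, 2 were called lower on day 7 and 4 on day 14, with medians of -0.26 and -0.35. Cyp51 measured 155, 153, 173 and 160.0 FPKM in sham, 167, 157 and 148 on day 1, 124, 119 and 117 on day 7, and 120.1, 108, 111 and 142 on day 14. Every value of days 7 and 14 lay under every sham value and every day 1 value. The mean fell by 25.0% on day 7 (difference -0.41 ± 0.08, adjusted p = 0.0040) and fell by 24.9% on day 14 (-0.42 ± 0.08, adjusted p = 0.0034). Cyp51 was past the threshold on both days in all 25 alternative settings that kept a limit of 0.05.

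Dhcr7, which makes the last reduction to cholesterol, measured 29.2, 29.3, 33.0 and 28.9 FPKM in sham, 28.9, 26.6 and 24.9 on day 1, 23.2, 22.0 and 19.3 on day 7, and 24.6, 19.6, 19.0 and 28.5 on day 14. All values of days 7 and 14 lay under sham, with day 14 sample 4 closest. The difference was -0.47 ± 0.12 (adjusted p = 0.015) on day 7 and -0.39 ± 0.11 (adjusted p = 0.029) on day 14. Sc5d, the sterol C5 desaturase, measured 53.6, 55.2, 55.0 and 49.1 in sham, 54.7, 47.9 and 50.4 on day 1, 44.5, 40.5 and 39.6 on day 7, and 42.2, 35.0, 32.1 and 49.9 on day 14. Day 14 sample 4 again reached the sham range while the other samples of days 7 and 14 lay under it. The difference was -0.35 ± 0.12 (adjusted p = 0.053) on day 7 and -0.43 ± 0.11 (adjusted p = 0.018) on day 14.

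Nsdhl, which removes the carboxyl group left at position C4 of the sterol ring, measured 54.8, 50.5, 54.4 and 49.6 FPKM in sham, 55.5, 48.1 and 48.8 on day 1, 45.9, 44.4 and 42.1 on day 7, and 42.3, 36.9, 34.5 and 48.9 on day 14. Neither day overlapped sham. The difference was -0.24 ± 0.10 (adjusted p = 0.11) on day 7 and -0.37 ± 0.09 (adjusted p = 0.016) on day 14. Msmo1, Tm7sf2 (a sterol C14 reductase), Hsd17b7 and Ebp (a sterol isomerase) were not called on either day. Tm7sf2 averaged 43.3 ± 3.28 FPKM in sham, 35.6 ± 3.05 on day 7 and 36.2 ± 6.24 on day 14. Ebp averaged 21.0 ± 1.31, 21.9 ± 0.31 and 18.7 ± 1.82, one of the few members with a day 7 mean above sham.

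Of the 4 genes of SREBP control and sterol transport, 0 were called on day 7 and 1, Srebf1, was higher on day 14. Srebf2, which encodes the main activator of sterol genes, averaged 36.8 ± 0.97 FPKM in sham, 36.4 ± 0.90 on day 1, 36.4 ± 1.96 on day 7 and 37.1 ± 0.49 at day 14. The 95% interval of its difference was -0.11 to 0.07 on day 7 and -0.07 to 0.09 on day 14. Srebf1 measured 25.2, 24.4, 25.1 and 28.0 FPKM in sham, 26.3, 27.0 and 26.9 on day 1, 24.3, 25.8 and 24.6 on day 7, and 27.9, 46.7, 32.3 and 33.3 on day 14. Day 14 samples 2, 3 and 4 lay above every sham value and sample 1 lay beside the highest. The difference on day 14 was 0.41 ± 0.11 (adjusted p = 0.027) and it was -0.04 ± 0.12 on day 7 (adjusted p = 0.86).

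The call of Srebf1 on day 14 was lost without sham sample 1 (adjusted p = 0.067), sham sample 2 (0.074) or sham sample 3 (0.064), and over all 25 alternatives its adjusted p ran from 0.0076 to 0.096. Its difference was 0.27 without day 14 sample 2. That sample also had the highest mean of the macrophage list, 5.55, against 4.0 to 4.51 in the other day 14 samples, and the part of this in the result was not tested. Insig1, itself a classical target of SREBP, measured 79.6, 80.1, 88.0 and 80.7 FPKM in sham, 83.0, 73.8 and 72.6 on day 1, 83.6, 78.5 and 67.2 on day 7, and 74.8, 80.0, 74.7 and 87.5 on day 14. The groups overlapped at each time, and the differences were -0.11 ± 0.08 on day 7 and -0.05 ± 0.07 on day 14 (adjusted p = 0.39 and 0.67). Stard4 averaged 14.1 ± 0.80 FPKM in sham, 12.9 ± 1.58 on day 7 and 12.3 ± 1.64 on day 14.

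Among the 4 fatty acid synthesis genes none was called on either day, with medians of -0.25 and -0.19. Acly measured 108.5, 115.9, 110.2 and 108.7 FPKM in sham, 122.1, 96.2 and 106.5 on day 1, 98.2, 97.2 and 84.5 on day 7, and 93.4, 102.6, 83.7 and 96.7 on day 14. No value of day 7 or 14 reached the sham range. The differences of -0.25 ± 0.08 and -0.24 ± 0.08 had adjusted p-values of 0.056 and 0.057. Fasn, the fatty acid synthase, averaged 70.3 ± 2.41 in sham, 58.7 ± 7.28 on day 7 and 64.3 ± 8.61 on day 14. Acaca averaged 18.0 ± 0.46, 15.1 ± 2.43 and 15.2 ± 2.82. Acss2, which makes acetyl-CoA from acetate, averaged 46.5 ± 1.95, 45.9 ± 2.22 and 45.2 ± 2.40.

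The 3 fatty acid desaturases among the members were called lower on both days. Scd, stearoyl-CoA desaturase, measured 81.2, 92.0, 87.5 and 95.8 FPKM in sham, 86.2, 88.5 and 71.8 on day 1, 59.3, 69.5 and 69.8 on day 7, and 75.6, 73.3, 55.6 and 76.6 on day 14. Every value of days 7 and 14 lay under every sham value. Its mean fell by 25.7% on day 7 (difference -0.42 ± 0.11, adjusted p = 0.019) and fell by 21.1% on day 14 (-0.35 ± 0.10, adjusted p = 0.039).

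Fads1, the delta-5 desaturase of polyunsaturated fatty acids, measured 92.8, 93.9, 103.8 and 99.3 FPKM in sham, 94.0, 95.1 and 92.2 on day 1, 83.4, 82.4 and 87.4 on day 7, and 84.9, 86.2, 72.5 and 83.7 on day 14. It was lower in all 7 samples of days 7 and 14 than in any sham sample. The difference was -0.20 ± 0.06 (adjusted p = 0.030) on day 7 and -0.25 ± 0.05 (adjusted p = 0.0091) on day 14. Fads2, the delta-6 desaturase, measured 73.2, 70.5, 76.0 and 77.2 FPKM in sham, 67.7, 67.6 and 66.6 on day 1, 61.3, 59.1 and 55.4 on day 7, and 57.6, 69.1, 44.1 and 62.3 on day 14. All values after TCI lay under the sham range, day 1 included. The difference was -0.34 ± 0.11 (adjusted p = 0.048) on day 7 and -0.36 ± 0.10 (adjusted p = 0.029) on day 14. Elovl6 ranged from 1.62 to 8.82 FPKM and overlapped in all groups. On day 1 it measured 1.70, 6.39 and 1.62 FPKM, with a difference from sham of -0.91 ± 0.35 (adjusted p = 0.92). The difference was -0.32 ± 0.35 on day 7 and -0.29 ± 0.32 on day 14 (adjusted p = 0.58 and 0.59).

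**Figure D2:**
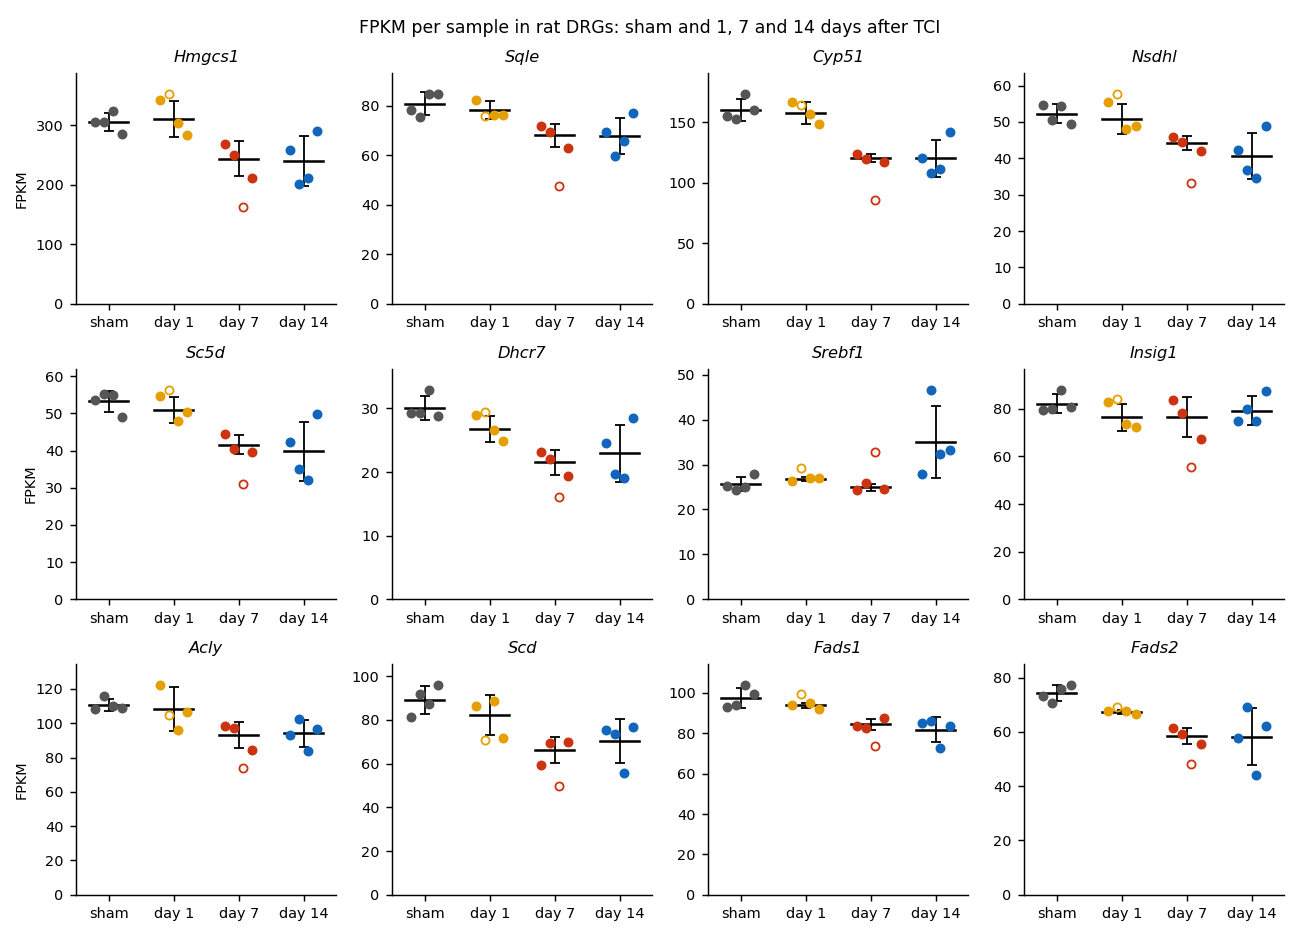
FPKM in each sample for the 12 members given sample by sample, by group (sham, and 1, 7 and 14 days after TCI). Filled points are the 14 samples used, open points the 2 samples left out, and lines and bars the mean and SD of the filled points. Cyp51 on days 7 and 14 lies under all its sham and day 1 points, and in the 6 sterol enzymes shown day 14 sample 4 (the rightmost blue point) is the highest of its group.

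Samples of the same day differed among themselves. For each sample the median over the 18 sterol enzymes of the log2 ratio of FPKM to the sham mean was taken. It was -0.13, -0.23 and -0.32 in day 7 samples 1, 2 and 4, and -0.23, -0.38, -0.35 and 0.01 in day 14 samples 1 to 4, against -0.04 to 0.09 in sham. Day 14 sample 4 thus stood at the sham level, with 8 of 18 sterol enzymes below their sham mean, while sample 2 had 18 of 18 below. For the 8 fatty acid enzymes the medians were -0.16, -0.17 and -0.40 on day 7 and -0.10, -0.19, -0.51 and -0.20 on day 14. Day 14 sample 3 was lowest here. In the left-out day 7 sample 3 the medians were -0.74 and -0.59, below every other sample, beside its muscle genes.

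Between days 1 and 7, 1 member was lower and none higher. This was Cyp51, with a difference of -0.39 ± 0.09 (adjusted p = 0.013). Of all genes 1.42% were called lower and 9.02% higher. All day 7 values lay under all day 1 values for 16 of 30 members, against 8.23% of all genes, and above for 0, against 23.8%. The median difference was -0.18 with 26 of 30 members below 0, against 0.04 and 38.2% for all genes. The call was lost without day 1 sample 1, and 2, 3 and 2 members were called without day 14 samples 2, 3 and 4.

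From day 7 to day 14 no member was called in either direction, and 2 had an unadjusted p under 0.05. Of all genes 0.0927% were called lower and 0.00713% higher. The 2 members were Srebf1 (0.45, adjusted p = 0.22) and Ebp (-0.22, adjusted p = 0.28). The median difference was -0.01.

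The comparison of day 7 with day 1 and that of day 14 with sham share no sample, so their values can be set side by side. Both differences were below 0 for 23 of 30 members (76.7%) and both above 0 for none, with 7 of opposite sign. Of all genes tested 26.5% were below 0 in both. The 7 were Srebf1, Lss, Srebf2, Pmvk, Ebp, Stard4 and Elovl6, that is, 3 of the 4 genes of SREBP control and sterol transport and 4 enzymes.

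**Figure D3:**
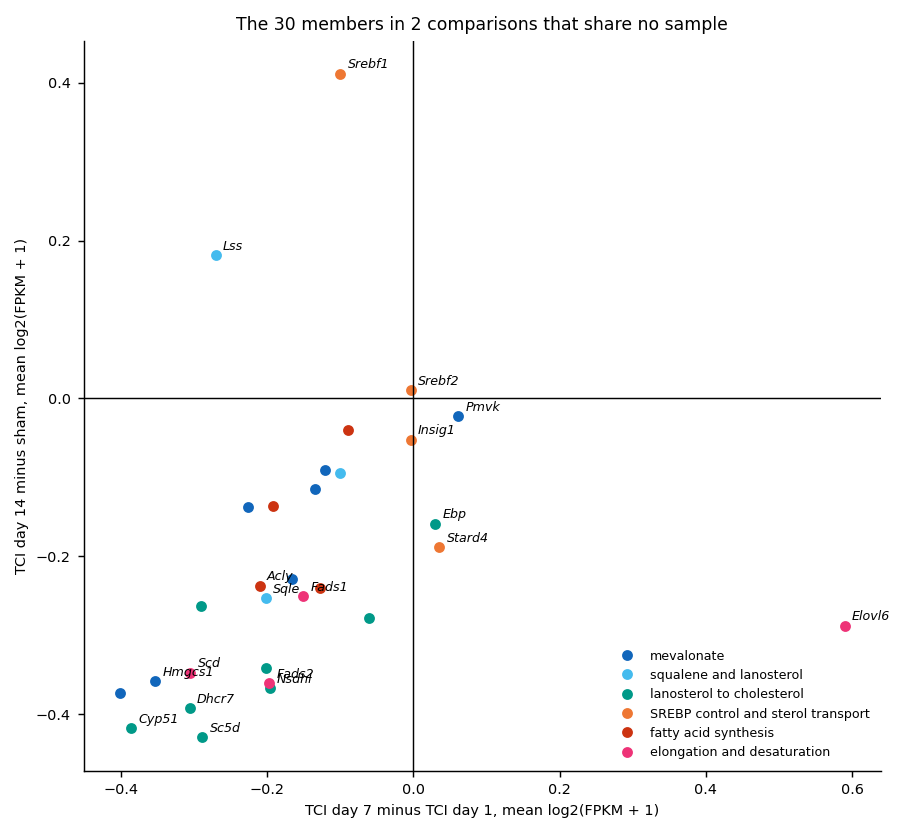
Difference of the 30 members between days 1 and 7 after TCI (horizontal) and between sham and day 14 (vertical), both in mean log2(FPKM + 1), colored by role. The 2 comparisons share no sample. In the lower left 23 of 30 members lie below 0 in both, with Cyp51 and Sc5d among the farthest out, and Srebf1 and Lss lie at the upper left.

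Of 24 other genes of synthesis and SREBP control, 23 were tested. On day 7, 1 (4.35%) was lower and 3 higher, against 3.45% and 14.5% of all genes. The calls on day 7 were thus near the shares of all genes. On day 14, 4 (17.4%) were lower and 0 higher, against 3.21% and 11.9% of all genes. The medians were -0.11 on both days. Scd2, the second stearoyl-CoA desaturase and the highest of this list, averaged 971 ± 12.3 FPKM in sham, 793 ± 27.2 on day 7 and 785 ± 124 on day 14. It was called on day 14 (difference -0.32, adjusted p = 0.029) and narrowly not on day 7 (-0.29, adjusted p = 0.051). Tecr, the reductase of the fatty acid elongation cycle, averaged 587 ± 12.5, 547 ± 46.6 and 558 ± 48.4 and was not called.

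Me1, the malic enzyme that supplies NADPH, was lower on day 7 (-0.24, adjusted p = 0.011) and day 14 (-0.19, adjusted p = 0.031). Insig2, which like Insig1 encodes an INSIG protein that holds SREBP in the endoplasmic reticulum, averaged 8.08 ± 0.55 FPKM in sham. It was higher on day 7 at 10.8 ± 1.88 (0.37, adjusted p = 0.024). The other genes called in this list, named after their values were seen, were Lbr and Mbtps1, higher on day 7, and Elovl5 and Hsd17b12, lower on day 14.

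Of 17 genes of sterol efflux, storage and lysosomal export, 16 were tested, and 8 were higher on day 7 and 6 on day 14 with 0 lower, where 14.5% and 11.9% of all genes were higher. The difference was below 0 for 6 of the 16 on day 7 and for 5 on day 14, with medians of 0.24 and 0.21. Tspo, a mitochondrial outer membrane protein long linked to cholesterol transport, averaged 6.16 ± 0.47 FPKM in sham, 15.9 ± 0.82 on day 7 and 11.7 ± 3.18 on day 14 (1.24 and 0.80, adjusted p = 0.00042 and 0.0060). Ch25h, whose product 25-hydroxycholesterol curbs SREBP processing, averaged 1.04 ± 0.16, 3.0 ± 0.29 and 2.24 ± 0.90 (0.97 and 0.63, adjusted p = 0.0022 and 0.021). Npc2, a lysosomal sterol carrier, was higher on day 7 (0.24, adjusted p = 0.014). Apoe, the apolipoprotein that carries lipid between glia and neurons and the most abundant gene of the list, averaged 3567 ± 215 in sham, 3411 ± 372 on day 7 and 3217 ± 123 on day 14 and was not called.

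Lists of cell type markers moved beside the members. All 14 macrophage genes were higher on day 7 and 13 on day 14, with list means of 2.25 to 2.76 in sham, 4.91 to 5.41 on day 7 and 4.0 to 5.55 on day 14. All 9 T cell genes tested were higher on both days. Of 6 fibroblast genes 3 were higher on day 7 and 1 on day 14 (medians 0.93 and 0.29), with list means of 5.30 to 5.76 in sham, 6.15 to 6.76 on day 7 and 5.01 to 6.42 on day 14. Of 7 endothelial genes 2 were higher on day 7 and 0 were called on day 14, with 7 and 5 above 0. Of 15 myelin Schwann cell genes 0 were called against sham on either day (medians -0.18 and -0.16), with 13 below 0 on each. The list mean was 6.63 in sham sample 4, which carried muscle genes, and 6.95 to 7.03 in the other sham samples. It was 6.51 to 6.83 on day 7, under those other sham samples, and 6.43 to 7.10 on day 14. Calls of this list without sham sample 4 are not given here. The myelin genes stood higher on day 1, with 15 of 15 above 0 and a median of 0.34 but 0 called. Of the 15, 10 were lower on day 7 than on day 1 (median -0.57).

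Of 13 neuron genes 5 (38.5%) were lower on each day (medians -0.18 and -0.14), with 12 below 0 on day 7 and 13 on day 14. All values lay under all sham values for 6 of the 13 (46.2%) on day 7 and 4 (30.8%) on day 14. For the members these shares were 53.3% and 23.3%, and for all genes 10.1% and 5.38%. The difference was below 0 for 5 of 7 shared glia genes on day 7 and for 7 on day 14. Of 7 genes shared by peripheral glia 1 was lower on day 7 and 2 on day 14 (medians -0.14 and -0.22), and of 7 satellite glia genes tested 1 was lower and 1 higher on day 7 and 2 lower on day 14. The part of these cell types in the members' differences was not tested. Of 11 adipocyte genes 3 passed the filter on low values, and 1 of them, Cfd, which encodes the secreted protease adipsin, was higher on both days (1.87 and 1.71, adjusted p = 0.0011 and 0.0022). Summed FPKM of the adipocyte list ran from 21.5 to 23.3 in sham, from 29.3 to 34.0 on day 7 and from 25.5 to 34.8 on day 14. Its defining markers Adipoq and Plin1 were at or under 0.05 and 0.10 FPKM in all 16 samples, whereas Fabp4 and Plin4 reached 32.6 and 20.7 FPKM in the left-out day 7 sample 3.

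Relative to the mean of the shared glia genes, the mean log2 level of the 18 sterol enzymes lay between -0.39 and -0.23 in sham, -0.43 and -0.29 on day 1, -0.54 and -0.34 on day 7, and -0.52 and -0.24 on day 14. These ranges overlapped. For day 7 only sham sample 2 (-0.39) lay within the day 7 range, and the other sham samples lay above it. The mean log2 level of the sterol enzymes lay at 5.84 to 5.96 in sham and 5.62 to 5.76 on day 7, without overlap. On day 14 it lay at 5.44 to 5.88, which overlapped sham. Relative to the neuron genes the ranges overlapped as well (-3.23 to -3.06 in sham, -3.29 to -3.05 on day 7). Relative to the myelin genes the sterol enzymes lay at -1.53 to -1.27 on day 1, against -1.18 to -0.79 in sham. On day 7 they lay at -1.12 to -0.82. On day 14 they lay at -1.29 to -0.86, which overlapped day 1. On day 1 the myelin genes stood above sham while the sterol enzymes did not. The mean log2 level of the 8 fatty acid enzymes lay at 5.59 to 5.66 in sham and 5.33 to 5.54 on day 1. It lay at 5.22 to 5.43 on day 7 and 5.13 to 5.52 on day 14, so no day overlapped sham. Elovl6, with a difference of -0.91 on day 1, is among these 8. Relative to the shared glia genes, these enzymes lay at -0.60 to -0.50 in sham and -0.91 to -0.74 on day 1. On days 7 and 14 that range overlapped sham.

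**Figure D4:**
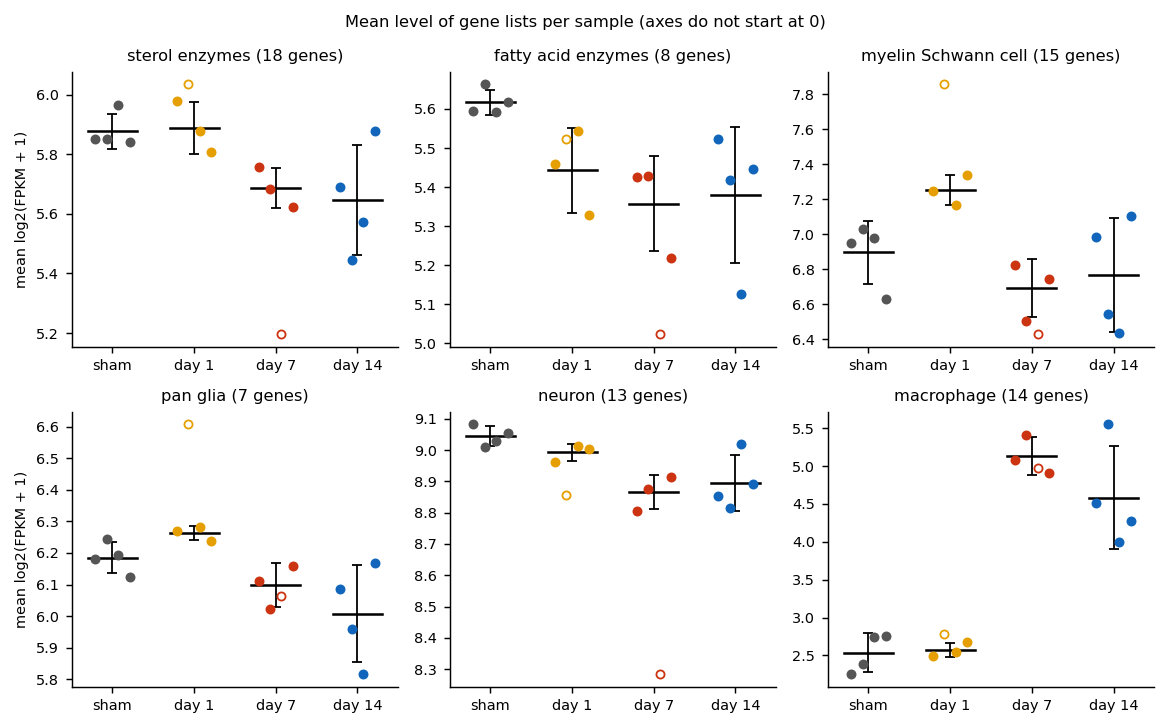
Mean log2(FPKM + 1) of the sterol enzymes, the fatty acid enzymes and 4 lists of cell type markers in each sample, by group. Filled points are the samples used, open points those left out, and lines and bars the mean and SD of the filled points. The sterol enzymes lie at 5.84 to 5.96 in sham and 5.62 to 5.76 on day 7, and the macrophage list at 2.25 to 2.76 and 4.91 to 5.41.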

How the data were processed

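RNA of L3–L5 DRGs from 16 rats was sequenced. The authors filtered reads of poor quality, mapped the others with HISAT and Bowtie2, estimated expression with RSEM and deposited FPKM per gene, 1 table per sample. The labels describe a standard Illumina preparation and name CASAVA 1.4 and Bowtie2, whereas the methods name BGISEQ-500. The genome build, annotation and other versions are not given in the sources used here. The tables hold FPKM, so no count test was possible and the branch of the design for FPKM was used.

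Genes that reached 1 FPKM in 3 or more of the 14 samples were tested on the scale log2(FPKM + 1), computed from the deposited FPKM. All 4 groups entered 1 fit per gene (limma 3.58.1, R 4.3.3, eBayes with the trend option), two-sided, with Benjamini-Hochberg adjustment over all genes tested. Values of groups are means ± SD of FPKM, and differences carry the SE or 95% interval of limma. Samples 2 of day 1 and 3 of day 7 entered only an alternative with all 16 samples. No 2 samples shared over 2.59% of identical values, so none was counted as a copy. The fit was run on simulated data, with a pass condition set at a change larger than any difference of the members. Its recovery of smaller changes is not given here.

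Members were matched by symbol. Of the 17 efflux genes, Apoc1 is listed for 2 genes and was not used. The members and the other lists were chosen with earlier results of these data known. Values in every sample are given for members called in the comparisons of day 7 or 14 with sham or of day 7 with day 1, and for the highest member of each role. Of the other pathway genes, the 2 with the highest mean and the 2 with the smallest p on day 7 are named, with exceptions marked. Results for 2 other genes are not reported here. Promoters came from a RefSeq table (GRCr8), which need not be the build of the reads. Alternatives were all 16 samples, TPM scaling, quantile normalization, a pseudocount of 0.1, no filter, a filter at a mean of 5 FPKM, only the 2 groups compared, no trend, the replicate number as a block, the study's cut-offs and each sample left out. Median centring and array quality weights were added after seeing the data. Python 3.11.15 with matplotlib 3.10.9 drew the figures.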

Additional observations from a re-analysis of the deposited data

Results flagged for a closer look

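In groups of 4 samples, left-out ones included, a value was picked out when its gap to the nearest other relative to the range of its group was above the 95% critical value of Dixon's test. This held for 9 of 120 groups of a member (7.5%, where chance gives about 5%). Of these, 3 lay in the left-out day 7 sample 3, each the lowest of its group, with 23.07 FPKM for Mvk (others 34.1 to 35.0), 85.56 for Cyp51 (others 117 to 124) and 16.05 for Ebp (others 21.7 to 22.3). That sample carried the muscle genes. Sham sample 3 was the highest of its group for Acat2 (100.82 FPKM, others 87.9 to 89.3), Dhcr7 (32.95, others 28.9 to 29.3) and Insig1 (88.05, others 79.6 to 80.7). On day 14, sample 4 was the highest for Tm7sf2 (45.42, others 32.3 to 34.4) and sample 3 the lowest for Scd (55.56, others 73.3 to 76.6). On day 1, sample 1 was the highest for Sqle (82.44, others 76.0 to 76.5). Cyp51, Dhcr7, Scd and Sqle are among the members called lower.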

How the results depend on the processing

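The count of members called lower on day 7 against sham was 6, and it was 12 with all 16 samples, 10 under quantile normalization, 18 under median centring, 14 with only the 2 groups compared, 12 with array quality weights and 0 under the study's cut-offs (|log2 fold change| of 1 or more, adjusted p up to 0.001). Leaving out single samples gave 2 to 10. On day 14 it was 9, with 5 for all 16 samples, 15 under median centring, 2 with only the 2 groups and 0 under the study's cut-offs, and 4 to 14 with single samples left out. The 1 member higher on day 14 was lost (0) with only the 2 groups and under the study's cut-offs, and the count was 0 to 1 with samples left out. For day 7 against day 1 it was 1, with 8 for all 16 samples, 11 under median centring, 4 with only the 2 groups, 5 with array quality weights, 0 under the study's cut-offs and 0 to 3 with samples left out. For day 14 against day 7 the count higher was 0 to 1 with samples left out. Array quality weights gave 6 members lower on day 14. The cause of these differences was not tested. The fit with all 16 samples took in day 7 sample 3, which had the lowest value for 23 of the 30 members. The shares of all genes called under these settings are not given here, so the counts of members cannot be set against them. In all other settings these counts stayed within 1.5 times.

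Sample numbers are shared between groups, but the samples come from different rats. Of 18 same-numbered pairs 4 had a correlation of deviations over 0.1 (range -0.10 to 0.27). The median was 0.003, against -0.005 for the other pairs. These values cannot decide whether same-numbered samples were handled together. A fit with the number as a replicate block called 6 members lower on day 7, 8 on day 14 and 1 for day 7 against day 1.

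Of the log2 differences of the named genes on days 7 and 14, 866 values under alternatives kept direction and side of the threshold, 55 gained the threshold, 119 lost it and 8 turned sign, all 8 in differences that were not called. They were Srebf1 on day 7 with all 16 samples (0.0546), Insig2 on day 14 (-0.0272 under TPM scaling, -0.0596 under quantile normalization, -0.0546 under median centring, -0.0349 without day 14 sample 4 and -0.0278 without sham sample 1, and -0.0349 to 0.0759 over all samples left out in turn), Apoe on day 7 under quantile normalization (0.00047) and Npc2 on day 14 under median centring (-0.0115). The depth is unknown, and with 3 or 4 samples a group, differences of the size of the SEs given could not be told from 0.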
